A study of Mus musculus with 2 samples.

Results

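Microglia are the resident macrophages of the spinal cord parenchyma, and here the ones outside the cell cycle were described. They were 1501 cells of the 17043 barcodes kept (788 of 6787 in the library labelled SMA and 713 of 10256 in the library labelled Con), out of 52340 barcodes in all. The members were chosen by their own UMIs, a UMI (unique molecular identifier) being 1 captured RNA molecule. A kept barcode had 200 to 4000 genes and under 10% mitochondrial UMIs. A member had a UMI in at least 4 of 7 microglia markers (P2ry12, Cx3cr1, Tmem119, Siglech, Gpr34, Selplg and Crybb1), in at most 1 marker of phagocytic microglia, in at most 1 of Mrc1, Cd163, Lyve1, F13a1, Pdgfra, Aqp4 and Cldn5, which mark border macrophages and other cell types, and under 3 summed UMIs of 10 genes of the cell cycle. Clec7a, 1 of the 5 phagocytic markers of this rule, had no row in the feature lists used here, so 4 were applied.

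Whole spinal cords of FVB mice at postnatal day 4 were profiled by 3' single-cell RNA-seq, with 1 library per group and littermates pooled in each. SMA mice (mSmn-/-, hSMN22tg/0) lack intact mouse Smn1 and carry the human SMN2 transgene, and Con mice (mSmn+/-, hSMN22tg/0) keep 1 intact allele and carry the same transgene. The deletion and the transgene are carried by every cell, so microglia and the tissue around them shared a genotype. Because each group was 1 library, no difference between groups could be set against replicates, no p-value was computed, and every 95% interval below covers counting error only.

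Microglia enter the nervous system from the yolk sac early in development and depend on the receptor Csf1r. In the postnatal cord they take up dying cells, synapses and myelin, and they sense nucleotides, complement and microbial products. Resting parenchymal microglia are known by P2ry12, Tmem119 and Cx3cr1, while cells that engulf debris in young white matter carry Spp1, Gpnmb, Igf1 and Lpl. The transcription factor PU.1, encoded by Spi1, sets up much of their expression. Trypsin and collagenase were used to free the cells, and warm enzymatic dissociation is known to raise immediate early and cytokine genes in microglia.

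The letters that PU.1 is known to bind were looked up in the promoters of microglia genes, because these promoters are what the identity of the cells is thought to rest on. GAGGAAGT was searched on both strands (ACTTCCTC on the other) in RefSeq windows of 300 bases around the gene starts, build GRCm38.p6. It was in 82 of 998 genes (8.22%) that were at least 2-fold higher in microglia than in the other kept barcodes of both libraries. Among the remaining tested genes it was in 176 of 5114 (3.44%), and among all 27025 genes with a window in 997 (3.69%). Of the 7 microglia markers 4 had a window and 0 of them held it, and of 20 homeostatic genes with a window 2 did. The windows below are those of the lysosomal protease gene Ctss, of C1qc, a chain of complement C1q, and of Ptgs1, the constitutive cyclooxygenase, printed on the gene's strand with the match in capitals.
Ctss, chr3:95526536-95526835, plus strand: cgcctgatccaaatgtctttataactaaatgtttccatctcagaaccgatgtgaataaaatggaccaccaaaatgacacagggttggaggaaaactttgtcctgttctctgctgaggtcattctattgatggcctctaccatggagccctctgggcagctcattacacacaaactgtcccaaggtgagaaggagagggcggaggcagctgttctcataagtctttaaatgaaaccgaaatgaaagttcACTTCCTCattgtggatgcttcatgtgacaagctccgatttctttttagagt
C1qc, chr4:136892865-136893164, minus strand: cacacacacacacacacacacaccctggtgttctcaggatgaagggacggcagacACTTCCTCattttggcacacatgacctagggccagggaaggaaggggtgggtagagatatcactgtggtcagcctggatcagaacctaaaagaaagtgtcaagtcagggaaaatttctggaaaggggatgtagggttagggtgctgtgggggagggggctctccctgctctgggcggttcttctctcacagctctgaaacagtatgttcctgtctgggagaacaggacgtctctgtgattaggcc
Ptgs1, chr2:36230176-36230475, plus strand: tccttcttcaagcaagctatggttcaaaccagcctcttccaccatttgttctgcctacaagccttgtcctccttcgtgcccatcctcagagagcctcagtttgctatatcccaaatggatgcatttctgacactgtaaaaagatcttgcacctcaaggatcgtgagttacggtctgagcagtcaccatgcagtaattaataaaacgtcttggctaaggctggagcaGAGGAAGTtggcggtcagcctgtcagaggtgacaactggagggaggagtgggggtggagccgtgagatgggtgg
The first base of the match lay 2 bases before the start in Ctss, 195 before it in C1qc and 24 before it in Ptgs1. These are matches of letters and do not show binding.

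The libraries stood apart in barcodes and in sex. They shared 8163 barcodes, and SMA barcodes also listed for Con were left out by the rule. Of the Con microglia 610 of 713 (85.6%) had a barcode that was also listed for SMA. Xist, transcribed from the inactive X chromosome of female cells, had 5 UMIs in SMA microglia (0.943 CPM, that is, UMIs scaled to a total of 1e+06) and 2835 in Con microglia (594 CPM). The Y-linked Uty, Ddx3y and Eif2s3y were higher in SMA microglia, with log2 ratios of 1.06 to 1.5. The sex makeup of the pools thus differed together with the genotype, and the effects of the 2 cannot be told apart. Median depth was alike, at 6308.5 UMIs and 2201 genes in SMA microglia, and 6582 UMIs and 2224 genes in Con microglia, while the 5th percentiles were 3257 and 2346 UMIs. Median mitochondrial shares were 6.75% and 6.70%.

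C1qa and Csf1r, which the rule did not use, were found in most members. In cells thinned to 2000 UMIs, C1qa was found in 99.1% of SMA and 99.0% of Con microglia against 12.4% and 10.1% of the other kept barcodes, and Csf1r in 88.7% and 89.5% against 6.53% and 5.48%. For these shares the other barcodes leave out cycling microglia but include phagocytic microglia and border macrophages, while levels in CPM of the other barcodes include all 3. The markers of the rule chose the cells, so that their shares only describe the members. Of these P2ry12, an ADP receptor, was found in 87.9% of SMA microglia (95% interval 85.4 to 90.1) and in 90.0% of Con microglia (87.5 to 92.1), with 5.21% and 4.51% in the other barcodes. The sparsest were Tmem119 (38.9% and 45.0%) and Siglech (45.1% and 41.0%).

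**Figure D1:**
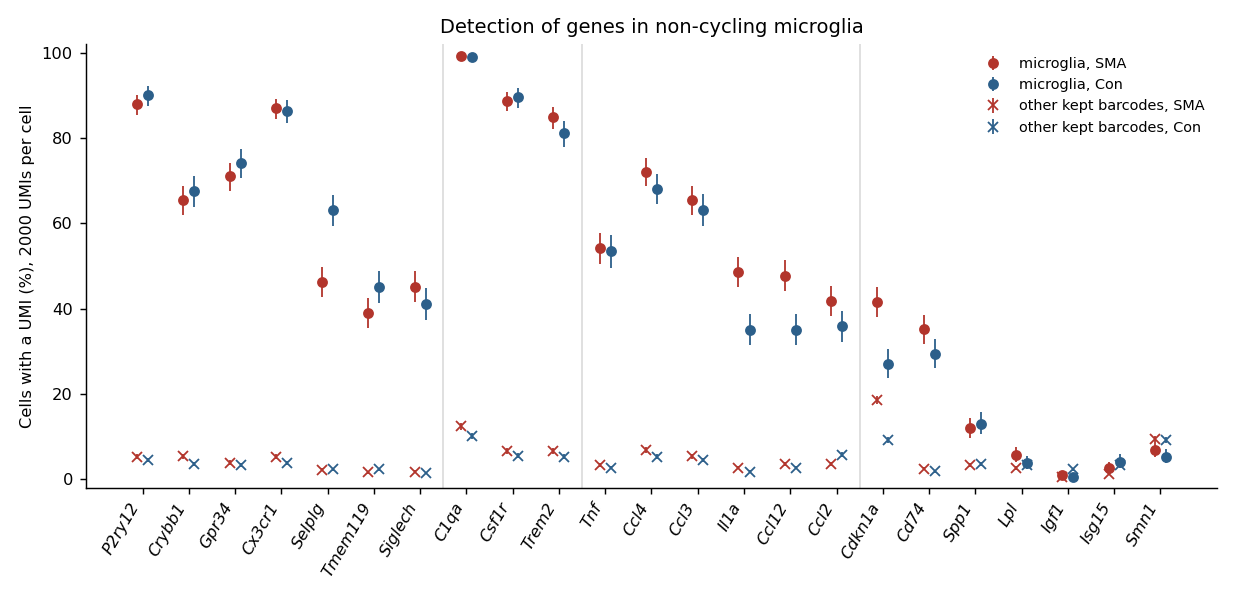
The percentage of cells with a UMI of each gene is shown for microglia (circles) and the other kept barcodes (crosses) of the SMA (red) and Con (blue) libraries, after thinning each cell to 2000 UMIs, with exact 95% binomial intervals. The vertical lines part the 7 markers, shared microglia genes, cytokines and further genes, and Il1a stood at 48.6% of SMA and 35.1% of Con microglia.

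Markers of other cell types were low but not absent in microglia. Of monocyte markers Ccr2 and Chil3 were at 0 in both libraries, and the 7 monocyte markers summed to 2.45 CPM in SMA and 7.55 CPM in Con. The neutrophil genes Camp and Ltf and the T cell gene Cd3e were also at 0 in both, and a count of 0 allows up to 0.566 CPM in SMA and 0.629 CPM in Con (3 UMIs per library). Haemoglobin UMIs, in contrast, summed to 15179 CPM in SMA and 20065 CPM in Con, and were found in 68.5% and 90.7% of the microglia. The other kept barcodes held 93570 and 160665 CPM of them. Fibroblast markers summed to 13.4 and 84.3 CPM in microglia and to 255 and 1413 CPM in the other kept barcodes. The 6 astrocyte markers summed to 1139 and 935 CPM, and the 6 oligodendrocyte markers to 1221 and 1267 CPM. The part of this RNA in the differences below was not tested.

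Cells lay on both sides of each limit of the rule. At 3 markers, just outside it, were 80 SMA and 93 Con barcodes, and at 4 markers, just inside, 77 and 78, while 332 and 362 had all 7. With 2 summed cell-cycle UMIs 70 SMA and 39 Con cells were inside, and with 3 UMIs 26 and 16 were outside. With 1 phagocytic marker 292 and 210 cells were inside, and with 2 markers 103 and 114 were outside. With 1 marker of the other cell types 266 and 257 cells were inside, and with 2 markers 39 and 34 were outside.

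Microglia made up a larger share of the SMA barcodes. They were 11.6% of the kept SMA barcodes (exact 95% interval 10.9 to 12.4) and 6.95% of the kept Con barcodes (6.47 to 7.46), a log2 ratio of 0.74 (0.60 to 0.88). The denominators were not alike. Barcodes shared between the libraries had been left out of SMA only, and the Con library kept many shallow barcodes (5th percentile of 657 UMIs, against 2600.6 in SMA). With every barcode thinned to 2000 UMIs before the rule and shallower ones left out, the shares were 10.6% and 8.16% and the log2 ratio was 0.38. It was 0.39 at 5000 UMIs or more, 0.55 without barcodes of over 30% ribosomal-protein UMIs, 0.44 with the shared SMA barcodes kept and 1.43 at a mitochondrial share under 5%. A share of barcodes does not count cells of the cord, and loss of other cells and gain of microglia cannot be told apart.

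Of the neighbouring groups defined here, cycling microglia were the most numerous. They numbered 139 in SMA and 86 in Con, which was 14.99% (12.8 to 17.5) and 10.8% (8.70 to 13.1) of the cycling and non-cycling microglia together. Thinned to 2000 UMIs the shares were 8.26% and 5.10%. Phagocytic microglia, with 3 or more of the applied markers, numbered 14 and 15, and border macrophages 22 and 32, too few for a comparison of expression.

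The most abundant genes were those of an actin-rich macrophage with a large lysosomal and complement output. Tmsb4x, which binds actin monomers, stood at 24967 CPM in SMA and 26082 CPM in Con, Cst3, a secreted inhibitor of cathepsins, at 22618 and 24261 CPM, and Apoe, a lipid carrier, at 10706 and 12433 CPM. Ftl1, a ferritin chain, stood at 10166 and 10596 CPM. These levels are of UMIs per gene without length, as 3' counting gives 1 tag per molecule. Of the 15 genes so chosen, without haemoglobin genes, Eef1a1, an elongation factor, differed most between the libraries, at 4050 and 5568 CPM (log2 ratio -0.46, -0.49 to -0.43).

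Between SMA and Con microglia, expression was close. Of 7600 genes with at least 100 UMIs in the 2 libraries together, 27 (0.355%) were at least 2-fold higher in SMA and 18 (0.237%) at least 2-fold lower. Sex-linked genes were not left out of these counts, and Xist was among the 18. The median log2 ratio was 0.04, with 55.6% of genes above 0, and the 5th and 95th percentiles were -0.39 and 0.48. Of these genes, 14 of the 27 and 16 of the 18 were lower in microglia than in the other kept barcodes in both libraries. The same share over all tested genes was not taken, so these counts are only a description. Among the 1268 genes at least 2-fold higher in microglia than in the other barcodes, 3 were at least 2-fold higher and 1 at least 2-fold lower.

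**Figure D2:**
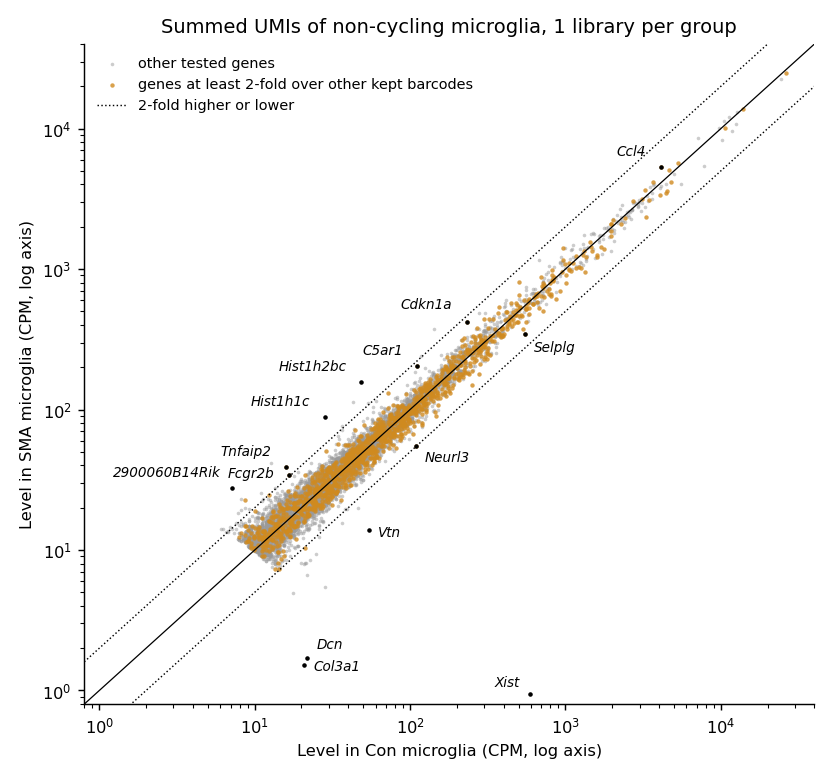
Each point is 1 of the 7600 tested genes, at its level in CPM in Con microglia (horizontal, log axis) and SMA microglia (vertical, log axis), with genes at least 2-fold over the other kept barcodes in orange and dotted lines at 2-fold. Most genes lay between the lines, and the farthest below them were Xist, Col3a1 and Dcn.

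After Xist, the genes farthest below the others in SMA were Col3a1, Dcn, Apod, Vtn and Fn1, and few microglia carried them. Col3a1, a fibrillar collagen, had 8 UMIs in SMA and 99 in Con (log2 ratio -3.78, -5.03 to -2.75), and it had a UMI in 0.761% and 2.66% of the cells. Dcn, a matrix proteoglycan, had 9 and 104 UMIs (-3.68), from 0.888% and 0.982% of the cells. Apod, Vtn and Fn1 followed with -2.37, -1.97 and -1.84, and Apod had a UMI in 2.03% of SMA and 1.68% of Con cells, the other way from its ratio. Fibroblast markers were lower in the SMA library outside microglia too, as given above, and their part in these ratios was not tested. For Apod the direction turned to 1.43 with at least 5 microglia markers, and for Vtn to 2.38 in the cells with under 5% mitochondrial UMIs, which numbered 92 and 96. With up to 20% mitochondrial UMIs Col3a1 was at -1.62 and Dcn at -1.52, and Fn1 ranged from -0.32 with at least 3 markers to -5.43 with under 5% mitochondrial UMIs.

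Clustered histone genes were among those with the highest ratios. Histone mRNAs of these clusters mostly lack a poly(A) tail, so that a poly(A)-primed library sees only a small part of them. Hist1h2bc stood at 157 CPM in SMA and 48.2 CPM in Con (log2 ratio 1.71, 1.49 to 1.92), the linker histone gene Hist1h1c at 88.1 and 28.3 CPM (1.64), and Hist1h4i at 41.3 and 12.8 CPM (1.69). Of 67 clustered histone genes 5 had 100 UMIs or more, and all 5 were above 0, beside 55.6% of all tested genes, with a median of 1.64, which was 0.96 at 50 UMIs. All 5 were lower in microglia than in the other barcodes. This list was written after the values were seen, so that its count supports nothing. All 3 genes lie on chromosome 13 of GRCm38 (plus strand for Hist1h2bc, 23684199 to 23692908, and Hist1h1c, 23738808 to 23740367, minus strand for Hist1h4i, 22040636 to 22041362). The antisense transcript 2900060B14Rik, of unknown function, had the highest ratio of the genes with 100 UMIs or more (27.7 and 7.13 CPM, 1.96). Below that limit Hist1h4h had 72 UMIs in SMA and 8 in Con (3.02, 1.96 to 4.28).

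Of the genes at least 2-fold higher in microglia than in the other barcodes, the 10 with the highest ratios included 3 receptors, Fcgr2b, Ptafr and C5ar1. Tnfaip2, a gene induced by TNF, stood at 38.9 CPM in SMA and 15.9 CPM in Con (log2 ratio 1.29, 0.90 to 1.68), and Fcgr2b, the inhibitory IgG receptor, at 34.3 and 16.6 CPM (1.05, 0.66 to 1.45). Ptafr, the receptor of platelet-activating factor, stood at 132 and 72.1 CPM, and C5ar1, the receptor of complement C5a, at 204 and 112 CPM, both with a log2 ratio of 0.87. Plau, the urokinase protease, was at 50.6 and 28.7 CPM (0.82). All were chosen by their ratio, so that these values are a description. B930036N10Rik (1.40), Ccdc152 (0.99), Eya4 (0.92) and Peg10 (0.77) completed the 10, beside Cdkn1a, and Peg10 was at -0.59 in the 92 and 96 cells with under 5% mitochondrial UMIs. In those cells the ratios of Fcgr2b and Ptafr were 0.32 and 0.52, and that of Plau was 0.47.

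The lowest ratios of such genes were Gm34455 (-1.03) and Neurl3, an ubiquitin ligase of the Neuralized family, at 54.9 CPM in SMA and 109 CPM in Con (-0.99, -1.20 to -0.78). Olfml3, a secreted olfactomedin protein long used as a microglia marker, stood at 151 and 251 CPM (-0.74), and Phyhd1 at 90.2 and 148 CPM (-0.71). Gm16310, Arl10, Liph, Tmem106a and Tlcd2, each under 16 CPM, lay between -0.95 and -0.76, and Arl4d at -0.67. Gm34455 was at -0.26 and Arl10 at -0.22 in the cells with under 5% mitochondrial UMIs.

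The identity genes were within 2-fold between the libraries, and most lay below 0. Of 26 homeostatic genes other than the markers of the rule, 10 lay above 0 and 16 below, none past 2-fold, with a median log2 ratio of -0.09 against 0.04 over all genes. The interval lay below 0 for 12 and above 0 for 5, beside 10.5% and 16.0% of all tested genes, of which 44.4% lay below 0. Intervals narrow as UMIs rise, so here and in the lists below such shares follow abundance as well as difference. Of 79 ribosomal-protein genes, 36 had an interval above 0 and 30 below, at a median of 0.01. Adgrg1, an adhesion receptor, stood at 75.3 and 118 CPM (-0.65, -0.84 to -0.47), Sparc, a secreted matrix protein, at 3462 and 4436 CPM (-0.36), and P2ry13, a second ADP receptor, at 133 and 168 CPM (-0.33). Adgrg1 was only 1.09-fold over the other kept barcodes in SMA and 1.65-fold in Con, and Sparc 2.68 and 2.35-fold. P2ry13 was 14.2 and 26.0-fold over them. Trem2, the lipid-sensing receptor, was on the other side at 1162 and 970 CPM (0.26, 0.20 to 0.32), and its adaptor Tyrobp stood at 3142 and 3123 CPM (0.01). Csf1r stood at 1355 and 1472 CPM (-0.12).

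The 7 markers of the rule are given as a description, since they chose the cells. Selplg, the P-selectin ligand, had 347 CPM in SMA and 547 CPM in Con (log2 ratio -0.66), Tmem119 247 and 316 CPM (-0.36), P2ry12 1392 and 1762 CPM (-0.34) and Crybb1 1021 and 1171 CPM (-0.20). Gpr34 was at 726 and 779 CPM, the fractalkine receptor gene Cx3cr1 at 1239 and 1166 CPM, and Siglech at 315 and 293 CPM. Of the markers 5 were thus lower in SMA and 2 higher, the interval of Siglech spanning 0. In the cells with under 5% mitochondrial UMIs Gpr34 turned to 0.19 and Cx3cr1 to -0.02, and Selplg was at -0.30.

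Of 13 lineage factors 6 lay above 0 and 7 below, beside 55.6% and 44.4% of all tested genes, and the interval lay above 0 for 1 and below 0 for 6. The median was -0.02, which was -0.29 in the cells with under 5% mitochondrial UMIs. The list holds the factors that give and keep microglial fate. Spi1 stood at 476 CPM in SMA and 581 CPM in Con (log2 ratio -0.29, -0.37 to -0.21), its partner Irf8 at 189 and 250 CPM (-0.41), and Klf2 at 699 and 919 CPM (-0.39). Sall1, which keeps the parenchymal identity, stood at 195 and 183 CPM (0.09, -0.04 to 0.22), and Mef2c at 646 and 654 CPM. Of the TGF-beta pathway, which sustains that identity, Tgfb1 was at 209 and 280 CPM (-0.42) and its receptor Tgfbr1 at 338 and 281 CPM (0.27), and 11 members had a median of -0.03.

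Most complement genes with enough UMIs lay above 0. The 8 of 12 genes with 100 UMIs or more all lay above 0, with a median log2 ratio of 0.18, and for 6 the interval lay above 0, beside 55.6% and 16.0% of all tested genes. Below 100 UMIs, Cfp, which stabilizes the alternative pathway convertase, had 9 UMIs in SMA and 23 in Con, and Serping1, the C1 inhibitor, 0 and 19. The chains of C1q, which starts the classical pathway and tags synapses, stood at 5665 and 5324 CPM for C1qa (0.09), 4131 and 3632 CPM for C1qb (0.19) and 3680 and 3245 CPM for C1qc (0.18). C3ar1, the receptor of C3a, was at 332 and 255 CPM (0.38), and C3 itself had 2 and 4 UMIs. The 3 C1q genes are neighbours on the minus strand of chromosome 4 of GRCm38, C1qb at 136880129 to 136886187, C1qc at 136889804 to 136893065 and C1qa at 136895917 to 136898803. In the cells with under 5% mitochondrial UMIs C1qa was at -0.03 and C3ar1 at -0.15, and Itgam, at 0.03, lay at -0.01 once ratios were centred on the median gene.

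Receptors by which microglia sense their surroundings had a median of 0.24 over 22 genes, with 15 above 0 and 7 below, beside 55.6% above 0 of all tested genes. Besides Fcgr2b, Ptafr and C5ar1, Ly96, the partner of TLR4, stood at 26.2 and 16.4 CPM (log2 ratio 0.68, 0.27 to 1.10), and Cd14, its coreceptor, at 649 and 503 CPM (0.37). Tlr2 was at 201 and 170 CPM (0.24) and Tlr7 at 52.2 and 42.4 CPM (0.30). Adora3, an adenosine receptor, was lower in SMA at 29.2 and 38.4 CPM (-0.39), as were the purine receptor P2ry6 at 182 and 203 CPM (-0.16) and the activating Fc receptor Fcgr3 at 416 and 498 CPM (-0.26). P2rx7, a purine-gated channel, stood at 48.1 and 46.3 CPM (0.05, -0.21 to 0.32), and Fcer1g, the signalling chain of Fc receptors, at 2234 and 2009 CPM (0.15, 0.11 to 0.19).

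Cytokine and chemokine genes were divided. Il1a, an alarm cytokine, stood at 810 CPM in SMA and 506 CPM in Con (log2 ratio 0.68, 0.61 to 0.75), Cxcl2, which draws neutrophils, at 1422 and 966 CPM (0.56), and Ccl12, which draws monocytes, at 533 and 376 CPM (0.50). Ccl4 was at 5327 and 4091 CPM (0.38), Ccl2 at 884 and 693 CPM (0.35) and Il1b at 990 and 816 CPM (0.28). Tnf was level at 670 and 670 CPM, and Ccl3 nearly so at 1869 and 1958 CPM (-0.07). Tgfb1, Ccl6 (136 and 177 CPM, -0.37) and Ccl9 (40.9 and 51.2 CPM, -0.32) were lower in SMA. Over 15 tested genes, 9 lay above 0 and 6 below, beside 55.6% and 44.4% of all tested genes, and the median of 0.09 was 0.00 among those at least as high in microglia as in the other barcodes and 0.45 in the cells with under 5% mitochondrial UMIs.

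Detection showed the same for single genes. A UMI of Il1a was found in 48.6% of SMA microglia (45.0 to 52.2) and 35.1% of Con microglia (31.5 to 38.8), and of Ccl12 in 47.7% (44.1 to 51.3) and 34.9% (31.4 to 38.6). In the other kept barcodes Il1a was found in 2.69% and 1.78%. Some cytokine gene was found in 96.8% and 94.8% of the microglia, so the list as a whole was near its ceiling.

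Immediate early genes were mostly lower in SMA. Of 20 genes 14 lay below 0, each with an interval below 0, and 6 above, with a median log2 ratio of -0.21. Of all tested genes 44.4% lay below 0, and 10.5% had an interval below 0. Zfp36, which destabilizes cytokine mRNA, stood at 609 and 865 CPM (-0.51), the phosphatase gene Dusp1 at 507 and 720 CPM (-0.51), Ier3 at 945 and 1335 CPM (-0.50), Jun at 1271 and 1722 CPM (-0.44) and Fos at 1967 and 2386 CPM (-0.28). Fosb was the exception of largest size, at 444 and 320 CPM (0.47, 0.38 to 0.56), followed by Nfkbiz (0.26) and Egr3 (0.24). Some immediate early gene was found in 98.8% and 98.4% of the cells. Of 9 heat shock genes 5 were below 0, Hspa1a standing at 67.1 and 104 CPM (-0.64).

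Lysosomal genes leaned lower in SMA. Of 25 genes 18 lay below 0 and 7 above, with a median log2 ratio of -0.05, beside 44.4% below 0 of all tested genes. Hexa, a subunit of a lysosomal enzyme, stood at 373 and 535 CPM (-0.52, -0.61 to -0.44), Cd68, a membrane protein of macrophage lysosomes, at 228 and 313 CPM (-0.45), and the protease gene Ctsd at 3380 and 4079 CPM (-0.27). Ctsc (0.21) was among those above 0. Of 12 engulfment genes 10 lay above 0, beside 55.6% of all tested genes, with a median of 0.09 and with Mertk, the receptor for dying cells, at 117 and 116 CPM.

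Genes of the phagocytic state ranged from abundant to sparse. Of 18 genes 15 had 100 UMIs, with 6 above 0, 9 below and a median log2 ratio of -0.03, beside 55.6% and 44.4% of all tested genes above and below 0. Apoe, a lipid carrier, stood at 10706 and 12433 CPM (-0.22), and the protease gene Ctsl at 1249 and 1287 CPM (-0.04). Igf1 was found in 1.03% of SMA and 0.44% of Con microglia, against 0.62% and 2.32% of the other barcodes, which is near background. Spp1, 1 of the markers that the rule limited, was found in 11.9% and 12.9%, against 3.28% and 3.55%. Cd9 stood at 597 and 520 CPM (log2 ratio 0.20) and Fabp5 at 680 and 609 CPM (0.16), both at lower levels than in the other barcodes of the same library. Csf1, the ligand of Csf1r, stood at 95.8 and 66.9 CPM (0.52, 0.31 to 0.72).

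Interferon response genes were low. Of 20 genes 7 had 100 UMIs or more, 3 above 0 and 4 below, beside 55.6% and 44.4% of all tested genes, with a median log2 ratio of -0.15. Isg15 stood at 15.3 and 23.5 CPM (-0.62, -1.05 to -0.20), and Ifi27l2a at 30.6 and 23.3 CPM (0.39, 0.04 to 0.75). A gene of the list was found in 26.2% and 27.7% of microglia, against 28.3% and 28.3% of the other barcodes, and no expression particular to microglia is read from these shares. Antigen presentation was level, with a median of 0.01 over 10 genes. Cd74, the invariant chain, stood at 289 and 226 CPM (0.36) and was found in 35.1% and 29.4% of microglia (2.45% and 1.82% of the others), while the class II genes H2-Aa and H2-Eb1 had 5 and 3 UMIs in SMA and 1 and 2 in Con and H2-Ab1 had 40 in SMA and 55 in Con.

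Targets of p53 lay on both sides of 0. Cdkn1a, the inhibitor of cyclin-dependent kinases, stood at 423 CPM in SMA and 232 CPM in Con (log2 ratio 0.87, 0.76 to 0.97) and was found in 41.5% (38.0 to 45.1) and 27.1% (23.8 to 30.6) of the microglia, against 18.5% and 9.09% of the other barcodes. Phlda3, an inhibitor of Akt, was at 19.2 and 8.18 CPM (1.23), Ccng1 at 25.5 and 13.8 CPM (0.88, and 2.32 in the cells with under 5% mitochondrial UMIs) and the death gene Bax at 228 and 165 CPM (0.47). Phlda3 and Bax were lower in microglia than in the other barcodes. Pmaip1 (-0.24), Plk3 (-0.27) and Btg2 (-0.39), which is also an immediate early gene, lay the other way. The median of 0.19 over 13 genes was -0.14 when 300 UMIs were required and -0.08 over genes at least as high in microglia as in the other barcodes.

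Genes of DNA replication leaned higher in SMA, although cells with 3 or more UMIs of the cell-cycle genes had been left out. All 15 tested S phase genes lay above 0, with a median log2 ratio of 0.20, and the interval of 6 lay above 0, beside 55.6% and 16.0% of all tested genes. Pcna, the replication clamp, stood at 152 and 117 CPM (0.38, 0.22 to 0.54), Mcm4, of the replicative helicase, at 23.8 and 15.7 CPM (0.60), and Hells, a chromatin remodeller, at 15.3 and 8.39 CPM (0.86). An S phase gene was found in 61.7% (58.2 to 65.1) of SMA and 53.7% (49.9 to 57.5) of Con microglia, against 54.6% and 49.2% of the other barcodes. The 10 cell-cycle genes that the rule limited summed to 64.9 and 49.1 CPM in these cells, given as a description, and their part in the S phase values was not tested.

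The gene targeted in the model and its partners were also listed. Smn1 stood at 34.3 CPM (182 UMIs) in SMA and 33.3 CPM (159 UMIs) in Con microglia (log2 ratio 0.04, -0.27 to 0.36). Whether tags of this row fall outside the deleted part, or come from the human transgene, was not given, so Smn1 does not check the labels. The 7 Sm core genes, whose proteins the SMN complex loads on small nuclear RNAs, all lay above 0, beside 55.6% of all tested genes, with a median of 0.39, from 0.04 for Snrpb (284 and 276 CPM) to 0.48 for Snrpf (132 and 94.6 CPM), and in the cells with under 5% mitochondrial UMIs the median was 0.21 and Snrpd3 was at -0.08. Each was lower in microglia than in the other barcodes. Of the SMN complex Strap was at 79.2 and 61.7 CPM (0.36) and Gemin7 at 38.9 and 42.4 CPM (-0.12).

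Metabolic gene lists had medians from -0.11 to 0.14, with single genes farther out. Of 77 nuclear genes of oxidative phosphorylation 57 lay above 0 and 43 had an interval above 0, beside 55.6% and 16.0% of all tested genes, with a median log2 ratio of 0.14, and 79 ribosomal-protein genes had a median of 0.01. Glycolysis had a median of -0.11 over 11 genes, Pkm standing at 298 and 361 CPM (-0.28). Of the mitochondrially encoded genes mt-Nd4l stood at 373 and 143 CPM (1.38) and mt-Nd5 at 490 and 278 CPM (0.82), while mt-Co3 was at 9658 and 11736 CPM (-0.28) and the median over 13 was 0.07. Of the lipid genes Abca1, the cholesterol exporter, stood at 302 and 245 CPM (0.30), and Pltp, lower in microglia than in the other barcodes, at 19.6 and 39.4 CPM (-1.01). Of iron genes Tfrc, the transferrin receptor, had 40 and 62 UMIs (-0.79). Hypoxia genes had a median of 0.08 over 6, and growth factor genes one of 0.08 over 10, which was -0.13 among those with 300 UMIs.

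**Figure D3:**
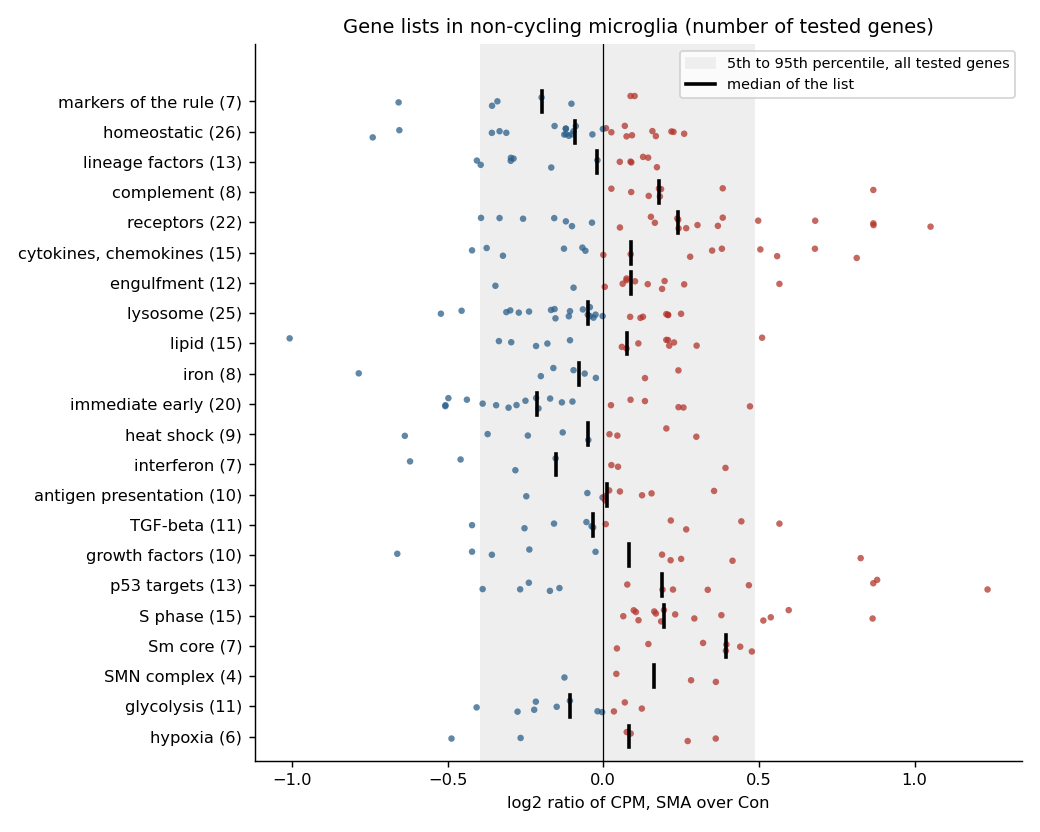
Each point is the log2 ratio of CPM, SMA over Con, of 1 tested gene in a list (red above 0, blue below), with black bars at list medians and, in grey, the 5th to 95th percentile of all tested genes (-0.39 to 0.48). The Sm core genes and complement lay above 0 throughout, and immediate early genes lay mostly below, with a median of -0.21.

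Set beside cycling microglia of the same library, the non-cycling cells had more of the identity genes and of several other lists. The median log2 ratio of cycling over non-cycling cells was -0.29 in SMA and -0.45 in Con for homeostatic genes, -0.31 and -0.54 for complement, and -0.25 and -0.44 for lysosomal genes. Engulfment genes were at -0.40 and -0.42, receptors at -0.33 and -0.40, and lineage factors at -0.15 and -0.55. The lower levels in cycling cells were thus not particular to identity genes. S phase genes were at 1.53 and 1.64, and Sm core genes at 0.41 and 0.55. Cell-cycle UMIs parted the 2 groups, so the values of S phase genes are given as a description. Tyms, which makes thymidylate, stood at 139 and 122 CPM in cycling and 17.7 and 16.6 CPM in non-cycling microglia. CPM share a fixed total, so that more UMIs of 1 gene mean fewer CPM of the others. Il1a was at 834 CPM in cycling SMA and 324 CPM in cycling Con microglia, and C5ar1 at 151 and 68.3 CPM, so both were higher in SMA in either group.

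**Figure D4:**
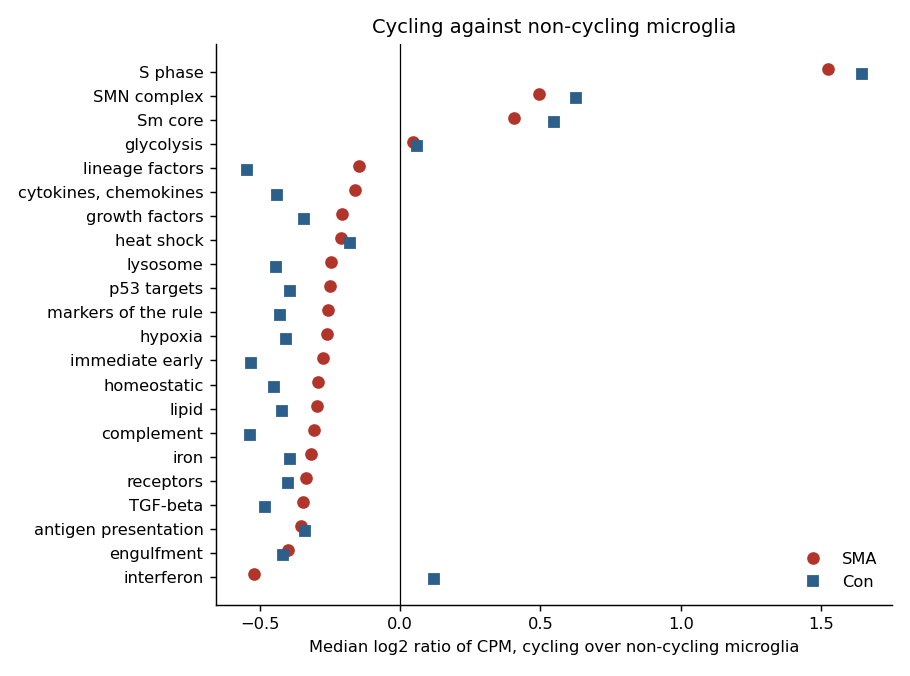
Median log2 ratio of CPM in cycling over non-cycling microglia for each gene list, in the SMA (red circles) and Con (blue squares) libraries. S phase, a description since cell-cycle UMIs parted the groups, lay at 1.53 and 1.64, and homeostatic genes at -0.29 and -0.45.

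The genes that varied most among the microglia included markers of other cell types, such as haemoglobin genes and Mbp, and chemokines. Whether the former were RNA of other cells was not tested. Over 4287 genes, cells thinned to 2000 UMIs had a median variance over mean of 1.04 in each library, where counting alone gives about 1. Among the 14 genes within the 20 most variable of both libraries were Hbb-bs, Hba-a1, Hbb-bt, Ccl4, Rgs5, Malat1, Mbp, Ccl2, Cst3, Cxcl2, Apoe and Spp1. For Ccl4 the ratio was 20.0 in SMA and 15.7 in Con, and single cells held up to 93 and 61 of their 2000 UMIs. Cells with 3 or more Ccl4 UMIs (462 SMA, 379 Con) had a mean of 5.87 and 6.35 UMIs of Ccl3, against 1.00 and 1.02 in the remaining cells. The 2 genes are neighbours on chromosome 11 of GRCm38, Ccl3 at 83647844 to 83649355 and Ccl4 at 83662584 to 83664683. Tnf had means of 1.55 and 1.69 against 0.88 and 0.86 in the same split.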

How the data were processed

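The deposited files hold raw counts of UMIs per gene and barcode, which the authors obtained by running Cell Ranger on mm10 with 10x Genomics 3' libraries, per the labels. The file headers name version 4.0.0, which is not the version in the study's methods. The authors' deposited barcodes had passed Cell Ranger's cell calling only. Groups came from the sample labels.

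Barcodes were kept and microglia chosen as described above, and doublets were treated by the limit of 4000 genes. The UMIs of all microglia in a library were added up and given as CPM. Ratios are log2 of SMA over Con CPM with exact conditional binomial intervals, shares have exact Clopper-Pearson intervals, and a gene was tested for fold at 100 UMIs or more over both libraries. For detection and variation each cell was thinned to 2000 UMIs (seed 1), leaving out 10 SMA and 26 Con microglia. A fold of 2 was used for counts of genes, with no test. Named genes were the 15 most abundant, the 10 highest and 10 lowest among genes at least 2-fold over the other kept barcodes, the 5 highest and 5 lowest of all, and members of the lists by role, without Xist, Y-linked, haemoglobin and rule genes. Genes named outside this were chosen after their values were seen. The members and lists were chosen with earlier results of these data known. Positions are from GENCODE M21 on GRCm38, which matched 32158 of 32285 identifiers. Total UMIs were 5302173 in SMA and 4768913 in Con microglia. The scripts were tested on simulated data. Python 3.11.15, numpy 2.4.6, scipy 1.17.1, pandas 2.3.3 and matplotlib 3.10.9 were used. Alternatives were other limits of markers, depth, mitochondrial share and UMIs, equal weight per cell, centring and keeping the shared barcodes. Some genes of the lists and of the named set are not reported here by name.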

Additional observations from a re-analysis of the deposited data

Results flagged for a closer look

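SMA barcodes that were also listed for Con were left out of the main comparisons and were kept only as an alternative. Of these, 466 would have met the microglia rule, with a median of 1371.5 UMIs, and 356 of them had the barcode of a Con microglia. Their Xist level was 527 CPM, against 0.943 CPM in the SMA microglia used here and 594 CPM in the Con microglia. It drew attention as a signal in barcodes outside the main comparisons, far above the level in the other SMA microglia. The cause was not tested.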

How the results depend on the processing

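No paired analysis was possible because each group was 1 library. The log2 ratio of the microglia share, 0.74, was 0.55 without barcodes of over 30% ribosomal UMIs, 0.38 with every barcode thinned to 2000 UMIs, 0.44 with the shared SMA barcodes kept, 0.39 at 5000 UMIs or more and 1.43 at a mitochondrial share under 5%. The counts of genes at least 2-fold higher and lower, 27 and 18, were 57 and 51 at 50 UMIs per gene and 7 and 3 at 300 UMIs. The number lower was 11 with 5 or more markers, 9 at a mitochondrial share under 5% and 7 with no marker of other cell types. At 300 UMIs the median of p53 targets was -0.14 and that of growth factors -0.13, and at 50 UMIs that of histones was 0.96. Restricted to genes at least as high in microglia as in other barcodes, an alternative chosen after seeing the data, medians were 0.00030 for cytokines, -0.31 for heat shock genes and -0.081 for p53 targets. At a mitochondrial share under 5% they were -0.29 for lineage factors, 0.45 for cytokines, 0.21 for Sm core genes and -0.061 for mitochondrially encoded genes, which were at 0.029 when centred. The log2 ratio of the share of cells with a UMI was 0.040 for immediate early genes and 0.073 for cytokines at 1000 UMIs, -0.0097 for cytokines at 5000 UMIs or more and 0.057 for S phase genes without thinning. Immediate early genes in cycling over non-cycling Con microglia were at -0.36 at 5000 UMIs or more. Apod turned to 1.43 with 5 or more markers and to 1.17 with no marker of other cell types, and Vtn to 2.38 at a mitochondrial share under 5%. The cause was not tested. Counted over each list or gene under each alternative, 300 other values of list medians and 576 of gene ratios moved by less than their counting interval, and 103 of gene ratios by more, Peg10 and C3ar1 among them crossing 0.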
